A study of Mus musculus with 12 samples.

Results

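Oxidative phosphorylation genes encode the respiratory chain and ATP synthase, and the set described here was chosen by gene symbol. It holds the protein-coding genes whose Ensembl identifier has, in GENCODE M21, a symbol of the Nduf, Sdh, Uqcr, Cox4 to Cox8 or Atp5 families or of a mitochondrially encoded Nd, Cytb, Co or Atp gene. The rule found 97 of the 43432 genes in the deposited table, 84 encoded in the nucleus and 13 in mitochondrial DNA, and both sets are given apart. Of these, 79 nuclear and 8 mitochondrial members had enough counts to be tested, among 16636 genes tested. Nuclear members were assigned to complexes by symbol family alone: 37 to complex I, 4 to complex II, 8 to complex III, 18 to complex IV and 17 to complex V. The place of each product was not checked, so counts per complex can include genes whose product sits elsewhere. The mitochondrial members comprise 7 of complex I, 1 of complex III, 3 of complex IV and 2 of complex V.

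The respiratory chain sits in the inner mitochondrial membrane. Complexes I and II pass electrons from NADH and succinate to ubiquinone, complex III passes them through cytochrome c to complex IV, which reduces oxygen, and complex V (ATP synthase) makes ATP from the proton gradient that complexes I, III and IV build. Complexes I, III, IV and V hold subunits from both genomes, whereas complex II is wholly nuclear-encoded. Several complex IV subunits exist as paralogues with tissue-restricted expression, and in gut epithelium absorptive enterocytes are rich in mitochondria.

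The libraries come from Flare25 mice, in which red fluorescence reports transcription of the cytokine gene Il25, a product of epithelial tuft cells, the chemosensory cells of the gut and biliary epithelium. DAPI- single EpCam+ cells were sorted by that fluorescence from dissociated epithelium, and bulk mRNA was amplified and sequenced. There were 4 groups of 3 libraries. GB-pos 1 to 3 are IL-25+ and GB-neg 1 to 3 IL-25- gallbladder epithelium, and SI-pos 1 to 3 are IL-25+ and SI-neg 1 to 3 IL-25- epithelium of the proximal small intestine. All 12 libraries carry the reporter and are described as homeostatic. For gallbladder libraries alone, the labels add a dye-coupled house dust mite (HDM) extract 1 day ahead of collection, so tissue and that label cannot be told apart. The labels do not say which libraries came from separate mice, so the p values measure only the spread between these libraries, which may be technical.

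Libraries held 23703449 to 64736650 counts. The gates matched their labels: Il25 counts were 220, 324 and 257 across the 3 GB-pos libraries, against 48, 1 and 0 across the GB-neg ones, and 169, 454 and 359 across the SI-pos libraries, against 0, 1 and 2 across the SI-neg ones. All 12 tuft markers were higher in IL-25+ cells of both tissues, with a summed level of 18090 to 20420 CPM (counts scaled to a common, TMM-adjusted library size) in GB-pos and 42.7 to 143 CPM in GB-neg libraries, and of 18620 to 21840 CPM in SI-pos and 82.8 to 199 CPM in SI-neg libraries. Markers of other epithelial cells moved with the gate too. In small intestine 8 of 8 goblet markers were lower in IL-25+ cells (127 to 535 CPM in sum in SI-pos, 4414 to 59670 CPM in SI-neg), as were 5 of 8 enteroendocrine markers (23.1 to 284 CPM in SI-pos, 5502 to 13540 CPM in SI-neg) and 2 of 12 enterocyte markers (7910 to 9744 CPM in SI-pos, 18700 to 29430 CPM in SI-neg). In gallbladder 7 of 8 gallbladder and cholangiocyte markers were lower in IL-25+ cells (1086 to 1413 CPM in GB-pos, 10490 to 14800 CPM in GB-neg). Among all genes tested, 12.8% were lower in IL-25+ cells of small intestine and 14.4% in those of gallbladder. The enterocyte count is near the small-intestine share, with 10 of 12 markers not called. The part of other epithelial cells in the gate differences below was not tested. GB-neg 1 stood apart: its Apoa1, an enterocyte apolipoprotein gene, had 8674 counts, against 68 in GB-neg 2 and 49 in GB-neg 3, and its enteroendocrine markers summed to 348 CPM, against 4.49 and 4.16 CPM. In turn SI-neg 3 held 63 counts of Sox17, a gallbladder transcription factor gene, against 5 in SI-neg 1 and 7 in SI-neg 2. Its gallbladder and cholangiocyte markers in sum differed less, at 1556 CPM against 1349 and 1213 CPM. Counts of calls are also given without SI-neg 3 and GB-neg 1.

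The sequences below show what the reads could and could not separate and which promoter letters some of the leading members carry. Promoters are the 250 bases before the RefSeq start (GRCm38.p6), and capitals mark a match to the motif of GABP and other ETS factors (CCGGAAG on either strand) or of NRF1 (GCGCATGCG), both known regulators of respiratory chain genes. Cox6b1 (chr7:30626115-30626364, minus strand) was higher in IL-25+ cells of both tissues, Cox6a1 (chr5:115348959-115349208, minus strand) carries both motifs, Sdhd (chr9:50603850-50604099, minus strand) was lower in intestinal IL-25+ cells, and Cox7a1 (chr7:30183921-30184170, plus strand) had the largest fall between the gallbladder gates among members above 10 CPM.
Cox6b1: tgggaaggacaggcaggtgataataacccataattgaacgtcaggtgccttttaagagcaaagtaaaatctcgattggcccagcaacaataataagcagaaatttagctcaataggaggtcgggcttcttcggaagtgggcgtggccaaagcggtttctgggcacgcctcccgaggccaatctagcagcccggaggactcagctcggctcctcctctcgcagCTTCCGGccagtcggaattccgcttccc
Cox6a1: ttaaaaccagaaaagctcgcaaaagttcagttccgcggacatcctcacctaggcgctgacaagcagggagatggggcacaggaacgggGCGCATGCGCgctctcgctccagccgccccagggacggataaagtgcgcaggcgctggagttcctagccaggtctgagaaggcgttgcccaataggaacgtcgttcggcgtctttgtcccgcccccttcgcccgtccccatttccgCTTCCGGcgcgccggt
Sdhd: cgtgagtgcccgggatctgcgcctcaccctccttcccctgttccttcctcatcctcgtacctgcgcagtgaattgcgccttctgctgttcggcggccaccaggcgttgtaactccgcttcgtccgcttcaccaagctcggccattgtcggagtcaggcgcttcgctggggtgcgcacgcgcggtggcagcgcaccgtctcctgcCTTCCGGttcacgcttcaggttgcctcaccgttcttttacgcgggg
Cox7a1: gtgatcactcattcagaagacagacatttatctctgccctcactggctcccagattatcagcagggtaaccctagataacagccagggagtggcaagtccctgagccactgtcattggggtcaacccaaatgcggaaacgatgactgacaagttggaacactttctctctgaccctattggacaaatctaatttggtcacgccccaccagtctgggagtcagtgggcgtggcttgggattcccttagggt
The ETS match begins 28 bases before the start in Cox6b1, 46 in Sdhd and 16 in Cox6a1, and the NRF1 match of Cox6a1 begins 162 bases before it. Over windows from 250 bases before to 50 after the start, 66 of the 84 nuclear members had a promoter in the RefSeq table. The NRF1 motif stood in 12.1% of these against 1.95% of 27025 promoters of all genes, the ETS motif in 24.2% against 9.93%, and the YY1 motif (AAGATGGCG, either strand) in 10.6% against 1.64%. At least 1 of the 3 motifs stood in 26 member promoters, 39.4%, against 12.7% of all promoters, which were not limited to genes tested here. Cox7a1 held none of the 3 motifs, which says only that these letters are absent from this window.

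Several mitochondrial members share long stretches of sequence with annotated unprocessed pseudogenes on chromosome 1 (chr1:24611535-24616197), nuclear copies of mitochondrial DNA. Below are 120 bases of mt-Co1 (chrM:5871-5990, plus strand), with the gene's own letters in lower case and bases lying in a 50-base window shared exactly with such a pseudogene in capitals, and the opening 120 bases of mt-Co2 (chrM:7013-7132, plus strand).
mt-Co1: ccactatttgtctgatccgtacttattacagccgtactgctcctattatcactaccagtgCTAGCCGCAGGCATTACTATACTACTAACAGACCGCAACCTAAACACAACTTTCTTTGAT
mt-Co2: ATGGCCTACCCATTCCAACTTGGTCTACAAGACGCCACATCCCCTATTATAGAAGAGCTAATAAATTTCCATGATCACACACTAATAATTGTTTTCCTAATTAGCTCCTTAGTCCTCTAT
In mt-Co2 all 684 bases lie in shared windows, and in mt-Co1 1157 of 1545 do. The share of 50-base windows that occur elsewhere was 100% for mt-Co2, 99.9% for mt-Co3, 99.5% for mt-Atp6, 98.8% for mt-Nd4l and 98.0% for mt-Nd3, and those 5 genes had almost no counts. Over all libraries mt-Co2 had 2, mt-Co3 0, mt-Atp6 3 and mt-Nd4l 1, and mt-Nd3 stood at 0.768 to 5.24 CPM. It was 62.2% for mt-Nd4, 51.1% for mt-Co1, 8.19% for mt-Nd2 and 7.61% for mt-Nd5, and 0 for mt-Nd1, mt-Nd6, mt-Cytb and mt-Atp8. The last of these was also at 0 counts, and how reads with several matches were counted is not given in the sources used here. Whether shared windows lowered the levels of mt-Co1 and mt-Nd4 was not tested. Among nuclear members, Atp5g2 (87.4%), Atp5l (84.9%) and Cox7c (53.0%) shared the most windows with pseudogenes or other transcripts, and Cox7a1, Cox7a2, Cox6b1, Ndufa1 and Uqcrfs1 shared none.

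The nuclear members took a smaller share of the counts that are not mitochondrial in gallbladder than in small intestine, and mitochondrial members took a smaller share in IL-25+ than in IL-25- cells. Nuclear members made up 0.812, 0.598 and 0.777% of those counts in GB-pos 1 to 3, against 0.791, 0.702 and 0.830% for GB-neg 1 to 3. They made up 1.10, 1.18 and 0.944% in SI-pos 1 to 3, against a mean of 1.35 ± 0.290% (SD, n = 3) and a range of 1.12 to 1.68% in the SI-neg libraries. The gallbladder and intestinal libraries do not overlap in this share, and within each tissue the gates do. As a share of all counts the tissues overlap, since GB-pos 1 at 0.754% lies above SI-neg 2 at 0.728%. In bulk samples, fewer cells of a type and less RNA per cell cannot be told apart.

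The 13 mitochondrial members took 5.24, 6.42 and 6.30% of all counts in GB-pos 1 to 3, against 8.68, 11.7 and 19.0% for GB-neg 1 to 3. They took 13.5, 13.6 and 9.14% in SI-pos 1 to 3, against 21.4, 27.5 and 21.1% for SI-neg 1 to 3. In both tissues every IL-25+ library lay below every IL-25- library, and GB-neg 3 lay above the other two of its group. Counts of mitochondrial members per count of nuclear members averaged 9.20 ± 2.42 in GB-pos and 20.8 ± 9.16 in GB-neg libraries, and 13.2 ± 1.95 in SI-pos and 26.1 ± 10.5 in SI-neg libraries (SD, n = 3 each). These shares are descriptions with no test.

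**Figure D1:**
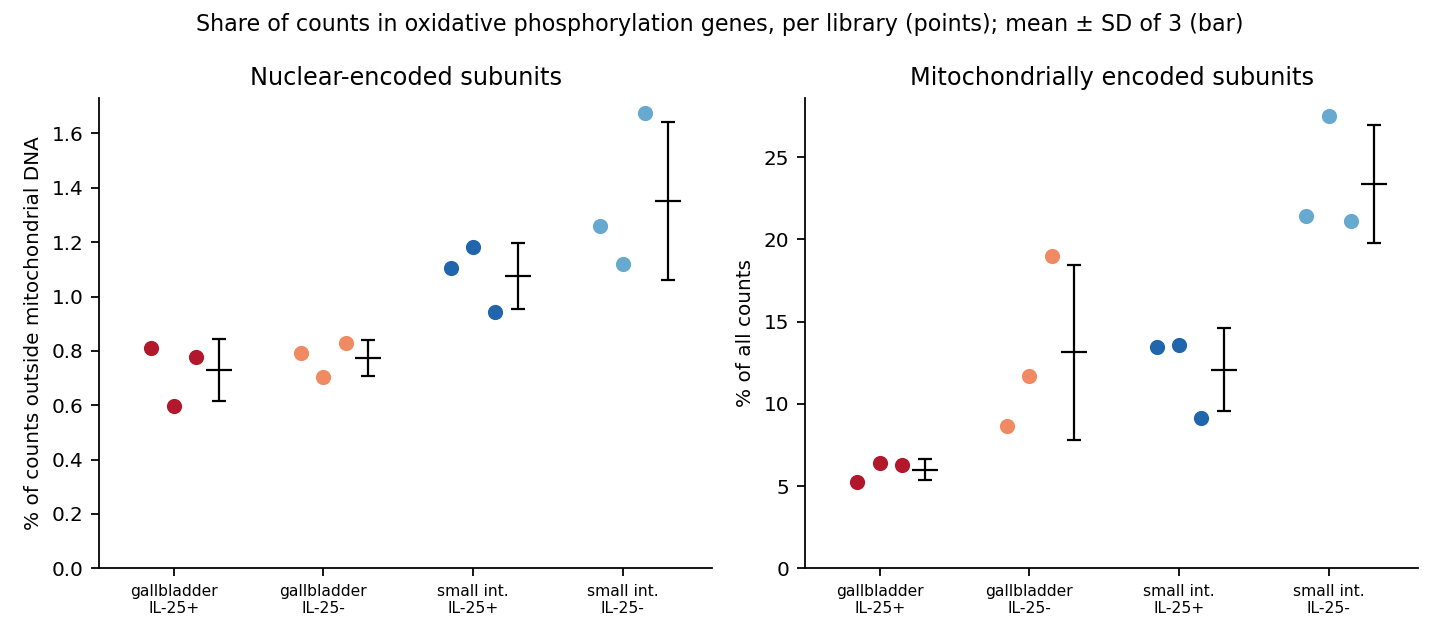
Share of each library's counts taken by the nuclear members (percent of counts that are not mitochondrial) and by the mitochondrial members (percent of all counts), 1 point per library with bars for the mean ± SD of 3. Nuclear shares reach at most 0.830% in gallbladder and are at least 0.944% in small intestine, and the mitochondrial share is lower in IL-25+ than in IL-25- libraries of each tissue.

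In small intestine, 19 of 79 tested nuclear members rose in IL-25+ cells relative to IL-25- cells and 5 fell, and the members that rose were mainly small subunits. The share that rose, 24.1%, stands beside 14.5% of all genes tested, and the share that fell, 6.33%, beside 12.8%. The median log2 fold change was 0.45 over nuclear members and -0.07 over all genes tested. By complex, 9 of 37 rose and 1 fell in complex I, 0 and 1 of 4 in complex II, 1 and 2 of 8 in complex III, 4 and 0 of 13 in complex IV and 5 and 1 of 17 in complex V. Calls are at an adjusted p of 0.05 in edgeR's quasi-likelihood test with Benjamini-Hochberg adjustment over all genes, with n = 3 libraries per group throughout, and fold changes are log2 ± SE.

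The split depended on scaling: under RLE size factors 10 rose and 7 fell, and in DESeq2 14 rose and 9 fell, while the median of all genes moved by -0.12 under RLE. Over all genes tested, 2119 rose and 2513 fell under RLE, and 2427 and 3128 in DESeq2, against 2405 and 2124 with TMM. The member rises under RLE were thus near the share over all genes. Rises made up 58.8% of member calls and 45.75% of all calls under RLE, and 60.9% and 43.7% in DESeq2. Of the 24 calls, 9 held in every alternative. The count that rose was 8 without SI-neg 1, 9 without SI-neg 2, 12 without SI-neg 3, 8 without SI-pos 2 and 9 without SI-pos 3, and the count that fell was 3 without SI-neg 1, 1 without SI-neg 3, 2 without SI-pos 2 and 1 without SI-pos 3. Without both SI-neg 3 and GB-neg 1, 13 rose and 2 fell.

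Ndufa1, a small membrane-arm subunit of complex I (Ensembl ENSMUSG00000016427, chrX:37187588-37191163, GRCm38), had 189.9, 191 and 248 CPM in SI-pos 1 to 3, against 46.6, 62.7 and 70.5 CPM in SI-neg 1 to 3. The groups do not overlap, and the rise of 1.81 ± 0.24 (adjusted p = 0.000118) was the largest of any nuclear member above 10 CPM. Ndufa13, also known as GRIM-19, had 105, 141 and 108 CPM in SI-pos 1 to 3 and 30.4, 38.0 and 39.1 CPM in SI-neg 1 to 3, a rise of 1.72 ± 0.24 (adjusted p = 0.000166), with 28.5% of its windows shared with other transcripts. Other accessory subunits of complex I whose rise held in every alternative were Ndufb3 (1.49 ± 0.29), Ndufa3 (1.37 ± 0.30) and Ndufv3 (1.22 ± 0.24). The core subunits of complex I carry its electron path and proton pumps. Of the 7 that are nuclear-encoded 1 rose and 1 fell, with a median of -0.02. Of the other 30 members with Nduf symbols 8 rose and 0 fell, with a median of 0.55.

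The core subunits that bind NADH and the first iron-sulfur clusters, Ndufv1 (-0.02 ± 0.42) and Ndufs1 (0.01 ± 0.24), did not pass.

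Complex II and the core of complex III held most of the falls. Sdhd, a membrane anchor of complex II, had 128, 112 and 92.8 CPM in SI-pos 1 to 3 and 213, 189 and 234 CPM in SI-neg 1 to 3, and fell by 0.94 ± 0.27 (adjusted p = 0.0208). Its call ended without SI-neg 1, SI-neg 3, SI-pos 2 or SI-pos 3 (adjusted p = 0.0522 to 0.0911). The catalytic subunits Sdha (-0.47 ± 0.22) and Sdhb (-0.50 ± 0.26) did not pass, although neither gate overlapped the other. Uqcrc1, a core protein on the matrix side of complex III (chr9:108936633-108949623), had 150.5, 119.9 and 138 CPM in SI-pos 1 to 3, against 261, 239 and 296 CPM in SI-neg 1 to 3. It fell by 0.97 ± 0.21 (adjusted p = 0.00446) in every alternative.

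Its partner Uqcrc2 fell by 0.78 ± 0.22, a call that ended without SI-neg 3, SI-pos 2 or SI-pos 3 (adjusted p = 0.0524 to 0.0683). The Rieske iron-sulfur protein Uqcrfs1 had 172, 214 and 145 CPM in SI-pos 1 to 3 and 171, 185.5 and 185.0 CPM in SI-neg 1 to 3, with groups that overlap (-0.03 ± 0.27). Uqcr10, a small complex III subunit, rose by 0.96 ± 0.27, against the direction of both core proteins, and lost its call without SI-neg 1, SI-neg 2 or SI-pos 2 (adjusted p = 0.0504 to 0.1045).

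In complexes IV and V the members that rose are small subunits, while the catalytic subunits of ATP synthase did not pass. Cox6b1, which faces the intermembrane space, had 205, 325 and 251 CPM in SI-pos 1 to 3 and 97.7, 117 and 127 CPM in SI-neg 1 to 3, a rise of 1.19 ± 0.20 (adjusted p = 0.000757). Cox8a had 141, 177 and 161 CPM in SI-pos 1 to 3 and 91.0, 69.8 and 69.5 CPM in SI-neg 1 to 3, a rise of 1.06 ± 0.23, and Cox6c rose by 1.16 ± 0.25. All 3 held in every alternative. Cox5a (0.09 ± 0.53) and Cox4i1 (0.18 ± 0.29) did not pass.

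Atp5mpl, a small membrane subunit of ATP synthase, rose by 1.32 ± 0.44 and Atp5e, the epsilon subunit, by 1.11 ± 0.33, and both lost their call without SI-neg 1, SI-pos 2 or SI-pos 3, Atp5mpl also without SI-neg 2 or SI-neg 3 (adjusted p = 0.0569 to 0.1599 for Atp5mpl and 0.0719 to 0.0961 for Atp5e). Atp5c1, the gamma subunit of the central stalk, fell by 0.71 ± 0.22 and lost its call without SI-neg 1, SI-neg 3, SI-pos 2 or SI-pos 3 (adjusted p = 0.0675 to 0.1401). The alpha and beta subunits, Atp5a1 (-0.17 ± 0.26) and Atp5b (1111, 1289 and 962 CPM in SI-pos, 1108, 967 and 1339 CPM in SI-neg; -0.02 ± 0.20), did not pass.

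In gallbladder, IL-25+ cells showed no common direction of the nuclear members: 9 of 79 rose and 12 fell. The 11.4% that rose stands beside 12.4% of all genes tested and the 15.2% that fell beside 14.4%, so both shares are near the background. The median was 0.01 over nuclear members and -0.15 over all genes. By complex, 6 rose and 4 fell in complex I, 0 and 0 in complex II, 0 and 3 in complex III, 2 and 2 in complex IV, and 1 and 3 in complex V.

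Of these 21 calls, 3 higher and 6 lower held in every alternative. DESeq2 put 13 higher and 11 lower, and RLE 11 and 11, beside 2493 and 2909, and 2146 and 2298, of all genes tested. The count that rose was 5 without GB-neg 1, 4 without GB-neg 2, 3 without GB-pos 1 and 4 without GB-pos 3, and the count that fell was 7 without GB-pos 1. Without both SI-neg 3 and GB-neg 1, 5 rose and 10 fell.

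Ndufa1 again rose, with 114, 84.3 and 115 CPM in GB-pos 1 to 3 and 42.5, 35.7 and 57.8 CPM in GB-neg 1 to 3, groups that do not overlap (1.20 ± 0.24, adjusted p = 0.0021). Ndufs6, a zinc-binding subunit of complex I, had 53.5, 55.7 and 85.5 CPM in GB-pos 1 to 3 and 38.6, 26.5 and 23.1 CPM in GB-neg 1 to 3 (1.14 ± 0.28), and Ndufa9 had 121, 122 and 127 CPM in GB-pos 1 to 3 and 85.7, 66.3 and 51.4 CPM in GB-neg 1 to 3 (0.86 ± 0.22). These 3 are the rises that held in every alternative. Ndufa10 (-0.88), Ndufa12 (-0.78) and Ndufv2 (-0.76) fell, and each lost its call without at least 3 of the single libraries, GB-neg 3 and GB-pos 1 among them (adjusted p up to 0.0719, 0.127 and 0.0695, in that order).

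In complex III, Uqcrfs1, Uqcrc2 and Uqcrh fell in gallbladder IL-25+ cells, Uqcrh by 0.72 with a call that ended without any of 10 libraries (adjusted p up to 0.135). Uqcrfs1 (chr13:30540308-30545362) had 25.9, 45.3 and 57.6 CPM in GB-pos 1 to 3, against 111, 94.9 and 146 CPM in GB-neg 1 to 3, a fall of 1.45 ± 0.27 (adjusted p = 0.00158). Uqcrc2 had 98.2, 59.3 and 101 CPM in GB-pos 1 to 3 and 197, 163 and 216 CPM in GB-neg 1 to 3, a fall of 1.16 ± 0.22 (adjusted p = 0.00151). The gates do not overlap for either gene, and both calls held in every alternative, with 24.8% of the Uqcrc2 windows shared with other transcripts. Uqcrc1 did not pass (-0.42 ± 0.21).

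A paralogue of complex IV gave the largest fall among members above 10 CPM. Cox7a1 (chr7:30184144-30186078), the isoform named for heart and skeletal muscle, had 2.03, 4.82 and 4.84 CPM in GB-pos 1 to 3, against 29.6, 25.8 and 34.1 CPM in GB-neg 1 to 3, a fall of 2.94 ± 0.45 (adjusted p = 0.000382) in every alternative. Cox7a2, the widely expressed isoform, had 46.0, 24.2 and 39.0 CPM in GB-pos 1 to 3 and 18.8, 15.9 and 22.0 CPM in GB-neg 1 to 3, a rise of 0.95 ± 0.29 that ended without GB-neg 1, GB-neg 2, GB-pos 1 or GB-pos 3 (adjusted p = 0.0712 to 0.1111). Per length of merged exons, Cox7a1 made up 17.1 ± 9.44% of both isoforms in GB-pos and 73.7 ± 0.479% in GB-neg libraries, and 34.1 ± 7.17% in SI-pos and 62.0 ± 7.07% in SI-neg libraries (SD, n = 3 each). In both tissues every IL-25+ library was below every IL-25- library in this share. The 6 muscle markers summed to 1.19 to 8.16 CPM in GB-pos and 1.92 to 4.13 CPM in GB-neg libraries, with 1 of them above 3 counts in GB-pos and 4 in GB-neg. Among these 6, Des and Ckm were at 0 counts in all gallbladder libraries, and Myh11 was at 0 in each GB-pos library and at 25, 0 and 0 in GB-neg 1 to 3. The rest of the list was read in both gallbladder gates. The part of muscle cells in the Cox7a1 difference was not tested.

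Among the other paralogues, Cox7a2l stood near or above Cox7a2 in every group, and the remaining pairs were one-sided in all groups. The Cox7a2l level per length of merged exons, scaled to the same total in each library, averaged 319.5 in GB-pos and 196.6 in GB-neg libraries. It averaged 172.4 in SI-pos and 289.2 in SI-neg libraries. Cox7a2 stood at 215.6, 104.2, 211.2 and 177.5 in that order. Cox6b2, known as a testis isoform, had 0 counts in each GB-pos library and 29, 11 and 3 in GB-neg 1 to 3. Its level was at least 10.4-fold lower against a floor of 3 counts over the group (adjusted p = 0.0113), and it took at most 1.55% of the pair with Cox6b1 per length in any library. Cox4i2 took at most 1.59% of its pair with Cox4i1, Cox6a2 was read 2 times in all libraries together, and Cox7b2, Cox8b and Cox8c had 0 counts. Against Atp5g3, which encodes the c-ring subunit, Atp5g1 took at most 4.01% of the pair per merged exon length in any library. Atp5g2, whose windows are mostly shared, took 4.51% in GB-pos 2 and at most 0.523% in any other library. Ndufa4l2, a hypoxia-induced relative of Ndufa4, was read 16 times in GB-pos 1 and 0 times in the other gallbladder libraries (adjusted p = 0.116), and 22, 8 and 20 times over the SI-pos libraries, against 0 in each SI-neg library (adjusted p = 0.0586).

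**Figure D2:**
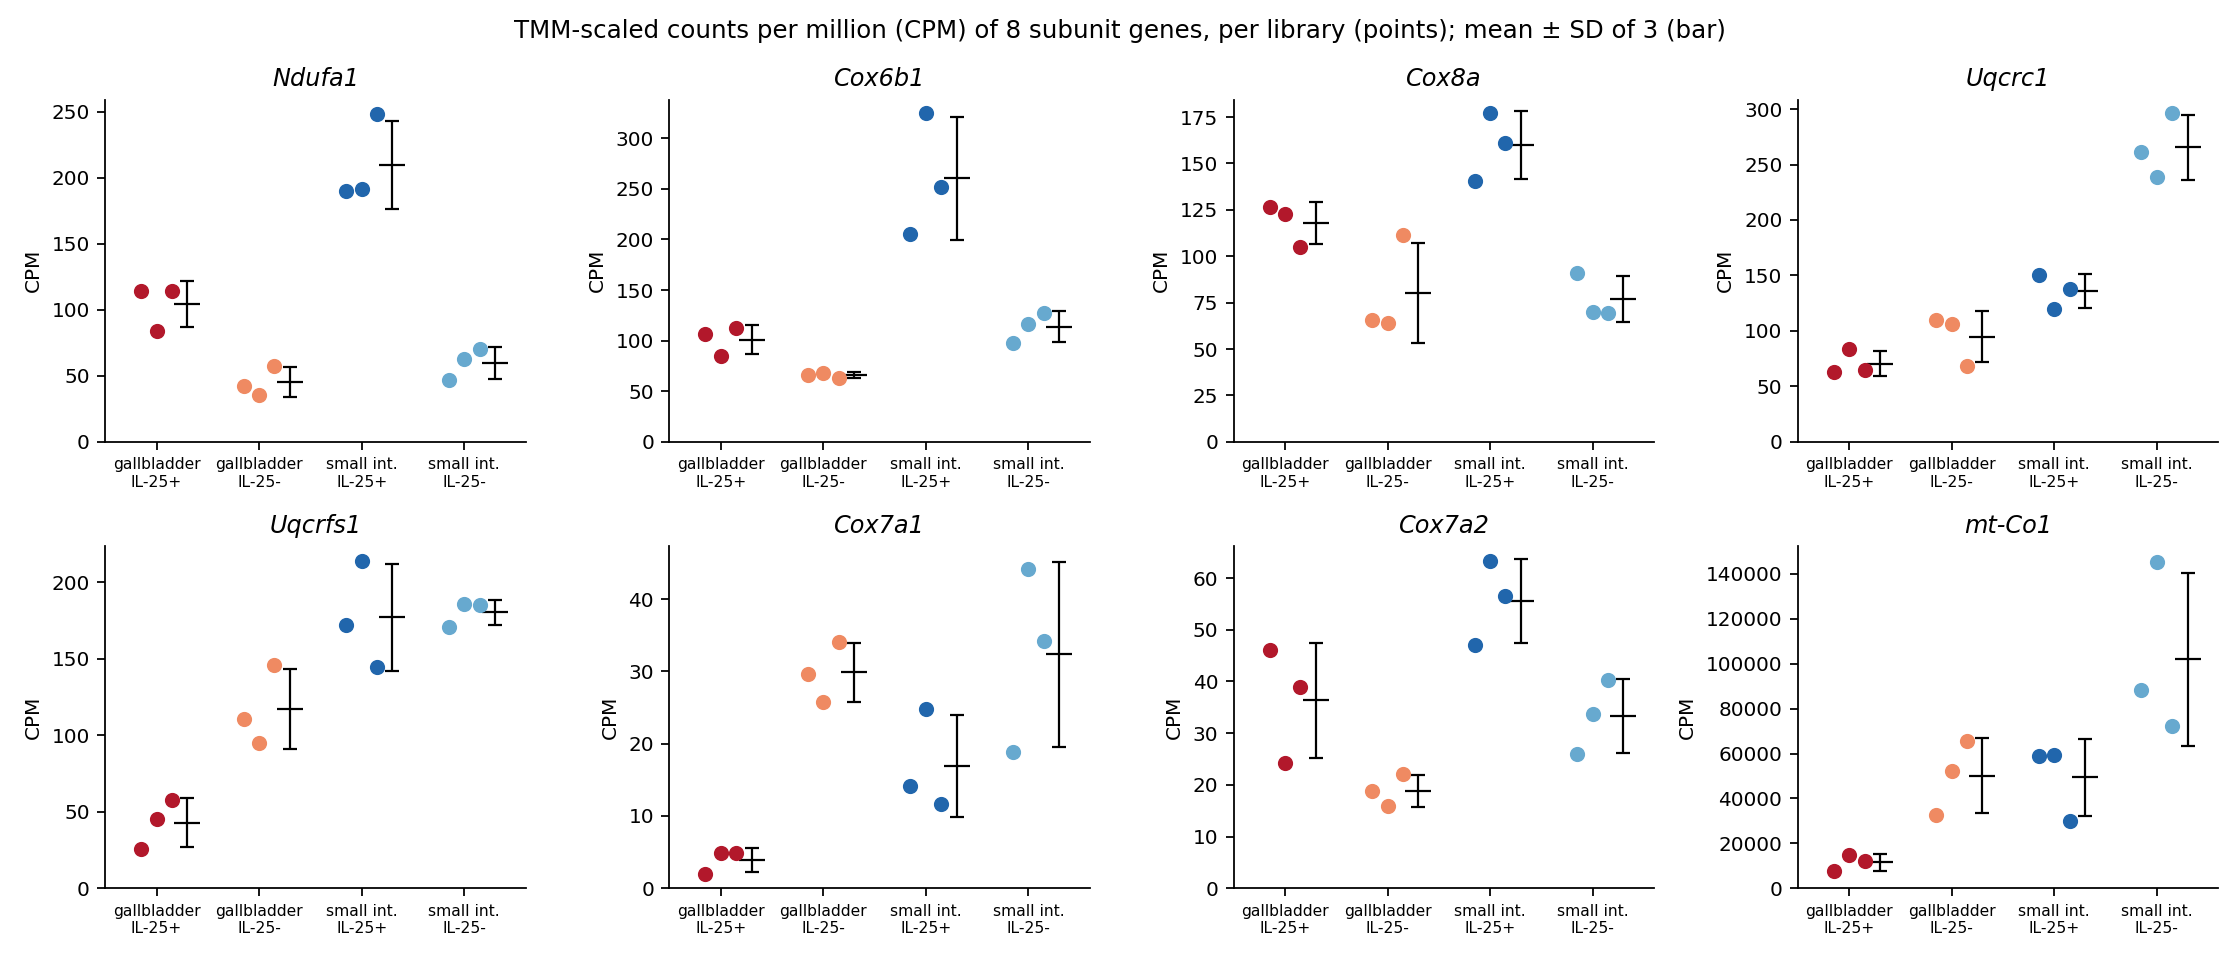
TMM-scaled CPM in each of the 12 libraries for 8 members, 1 panel per gene, with bars for the mean ± SD of 3 libraries. Cox7a1 is lowest in the GB-pos libraries (2.03 to 4.84), Cox7a2 is higher in IL-25+ than in IL-25- libraries of each tissue, and Ndufa1 and Cox6b1 are higher in IL-25+ libraries of each tissue.

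Of the 17 members with Atp5 symbols, 1 rose and 3 fell in gallbladder IL-25+ cells, and the 17.6% that fell stands near the background of 14.4%. Atp5f1, the b subunit of the peripheral stalk, had 15.6, 15.5 and 22.4 CPM in GB-pos 1 to 3 and 34.4, 30.1 and 61.2 CPM in GB-neg 1 to 3, a fall of 1.23 ± 0.30 (adjusted p = 0.00764) in every alternative, with 38.7% of its windows shared with pseudogenes. Atp5b had 489, 478 and 506 CPM in GB-pos 1 to 3 and 733, 627 and 1012 CPM in GB-neg 1 to 3, a fall of 0.69 that ended without GB-neg 3 or any GB-pos library (adjusted p = 0.0525 to 0.0810). Atp5e rose by 1.09 ± 0.33 and lost its call without GB-neg 1, GB-neg 2, GB-pos 1 or GB-pos 3 (adjusted p = 0.0639 to 0.1248).

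The gate comparisons of both tissues share no library, and no member was called in opposite directions. Atp5e, Cox6b1, Ndufa1, Ndufa13 and Ndufb3 rose in both, which is 26.3% of the members that rose in small intestine and 55.6% of those in gallbladder. Over all genes tested, 1176 rose in both, 48.9% of those that rose in small intestine and 56.9% of those in gallbladder. In gallbladder the Cox6b1 rise was 0.62 ± 0.20, with 107, 84.5 and 112 CPM in GB-pos 1 to 3 and 66.4, 68.3 and 62.7 CPM in GB-neg 1 to 3, and it ended without any GB-neg library, GB-pos 1, GB-pos 3 or SI-pos 3 (adjusted p = 0.0528 to 0.1164). The gallbladder call of Ndufb3 ended without any of 7 libraries (adjusted p up to 0.1599), and those of Ndufa13 and Atp5c1 without GB-pos 1 (adjusted p = 0.0507 and 0.0541). Of the members that fell, 3 did so in both, Atp5c1 and Uqcrc2 among them, which is 3 of the 5 in small intestine and 3 of the 12 in gallbladder, beside 45.95% and 40.84% over all genes that fell. Tested directly, the gate effect differed between tissues for 2 nuclear members, 0 with a higher and 2 with a lower effect in gallbladder, beside 3.63% and 5.60% of all genes. These were Uqcrfs1 (-1.42 ± 0.38, adjusted p = 0.0329) and Cox6b2 (adjusted p = 0.0222). The Uqcrfs1 call ended without GB-neg 3, GB-pos 2, any SI-neg library, SI-pos 1 or SI-pos 2 (adjusted p = 0.0543 to 0.0926), and that of Cox6b2 without SI-neg 3 or SI-pos 3 (adjusted p = 0.0533 and 0.0687). Cox7a1 did not pass (-1.997, SE 0.603, adjusted p = 0.0554), and no mitochondrial member did.

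**Figure D3:**
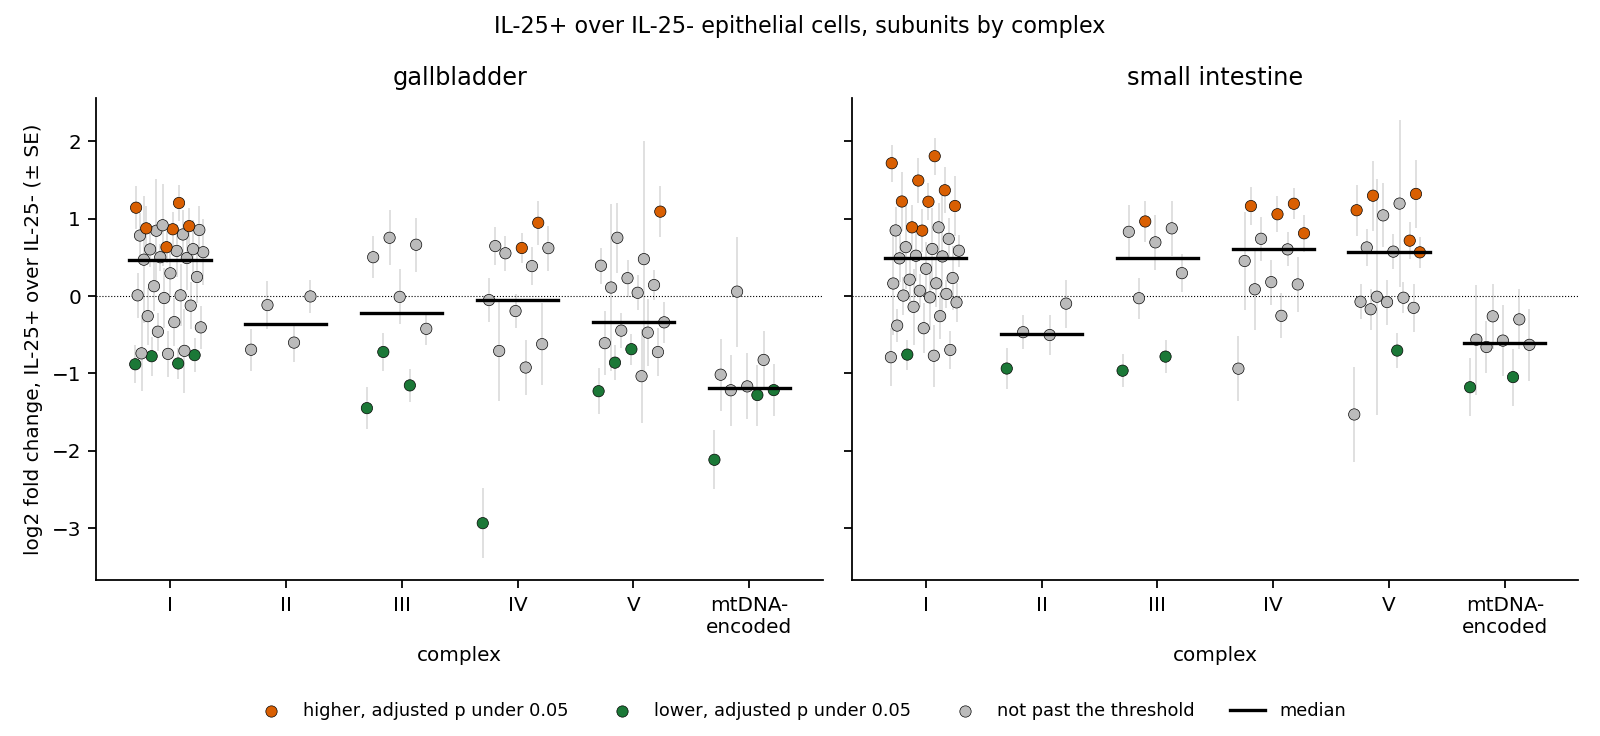
Log2 fold change of IL-25+ against IL-25- cells for each tested nuclear and mitochondrial member, by complex and tissue, with SE bars, colored points for calls at an adjusted p of 0.05 and a line at each median. Small-intestine medians of nuclear complexes I, III, IV and V lie at 0.49 to 0.60, whereas in gallbladder complex I lies at 0.47 and the others at -0.36 to -0.05. Cox6b2 and Ndufa4l2, at 0 counts in a group, are not drawn.

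In small intestine the members with short coding sequences had the higher fold changes. Of 22 members with up to 300 coding bases, 10 rose and 0 fell, with a median of 1.01. Of 37 with more than 300 and up to 600 bases, 7 rose and 1 fell (median 0.51), and of 20 longer ones 2 rose and 4 fell (median -0.12). In gallbladder the same classes gave 4 and 3 (median 0.45), 4 and 1 (median 0.13), and 1 and 8 (median -0.45). Across members, Spearman's rho between length and fold change was -0.54 in small intestine and -0.30 in gallbladder, as a description over 79 genes that share libraries and are not independent.

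Over all 13880 protein-coding genes tested rho was -0.05 and -0.01. Among 295 of them with up to 300 coding bases, 75 rose and 32 fell in small intestine (median 0.33), and 44 rose and 37 fell in gallbladder (median 0.08). Among 1502 with more than 300 and up to 600 bases, 264 rose and 149 fell in small intestine, and 204 and 196 in gallbladder. Among 12083 longer ones, 1863 rose and 1856 fell in small intestine (median -0.13), and 1625 and 2010 in gallbladder (median -0.17). Mitochondrial and cytosolic ribosomal protein genes gave negative values as well: rho was -0.53 and -0.33 over 75 mitochondrial ribosomal proteins, and -0.50 and -0.12 over 72 cytosolic ribosomal proteins, for small intestine and gallbladder in that order. The median fold change of those families in small intestine was -0.26 and -0.55, against 0.45 for the respiratory chain members. The part of transcript length in the member differences was not tested.

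**Figure D4:**
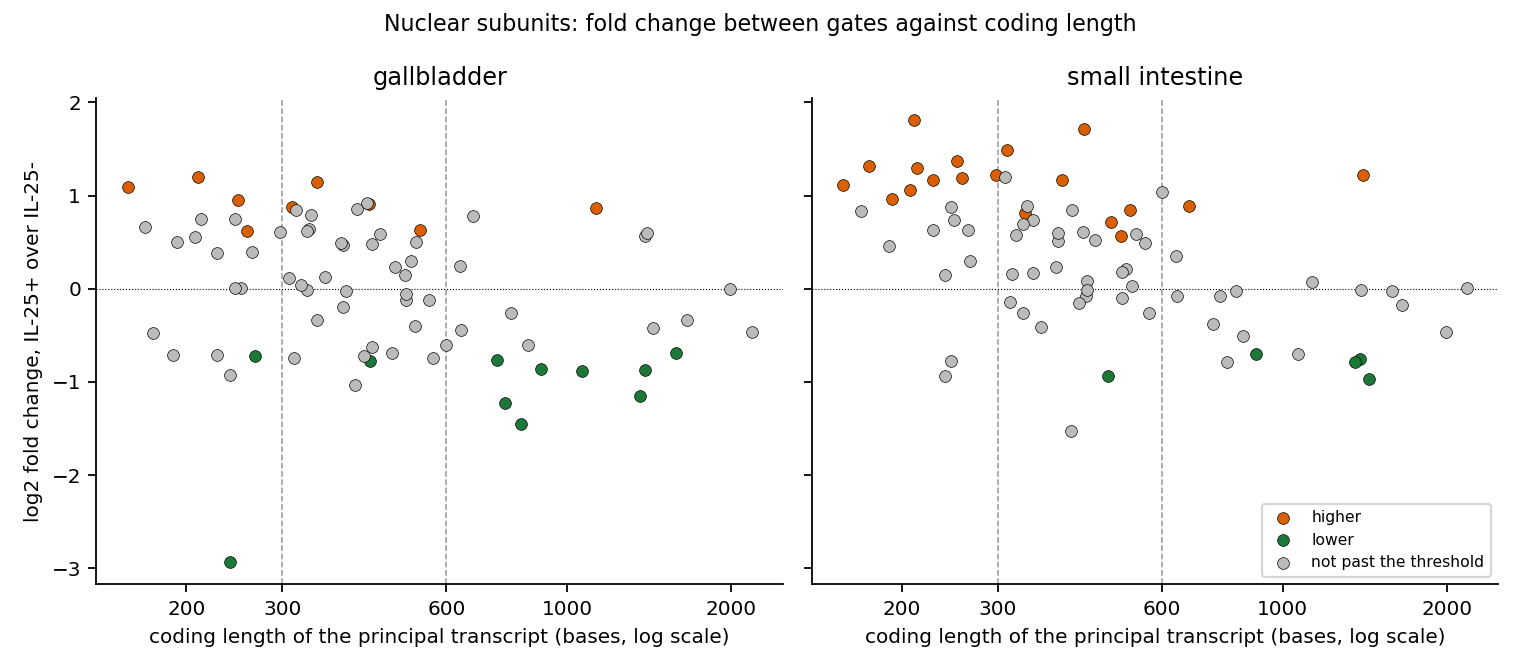
Coding length in bases (log axis) against the log2 fold change of IL-25+ over IL-25- cells, 1 point per tested nuclear member except Cox6b2 and Ndufa4l2, for each tissue. In small intestine the members with up to 300 bases center on 1.01 and those above 600 bases on -0.12.

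The mitochondrially encoded members that passed were lower in IL-25+ cells, in both tissues. In small intestine 0 of 8 tested rose and 2 of 8 fell, beside 14.5% higher and 12.8% lower among all genes tested. All 8 of 8 lay below 0, with a median of -0.60 against -0.07 over all genes. In gallbladder 0 rose and 3 fell, 37.5% beside 14.4% lower among all genes tested. There 7 of 8 lay below 0, with a median of -1.19 against -0.15 over all genes. The exception was mt-Nd3 (0.06 ± 0.71), which is barely read. The gallbladder count was 7 without GB-neg 1, 7 without GB-neg 2 and 1 without GB-neg 3 or GB-pos 1, and 6 without both GB-neg 1 and SI-neg 3. The intestinal count without single libraries ranged from 0 to 4.

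The catalytic subunit gene mt-Co1 had 7654, 15030 and 11950 CPM in GB-pos 1 to 3, against 32430, 52160 and 65670 CPM in GB-neg 1 to 3, a fall of 2.12 ± 0.38 (adjusted p = 0.00111) in every alternative. It had 58800, 59480 and 29770 CPM in SI-pos 1 to 3 and 88280, 145500 and 72280 CPM in SI-neg 1 to 3, a fall of 1.05 ± 0.37 (adjusted p = 0.0499) that ended without any of 8 libraries (adjusted p up to 0.187; SI-neg 3, GB-neg 1, GB-neg 3 and GB-pos 1 are the ones that kept it). The cytochrome b gene mt-Cytb had 9984, 15890 and 14180 CPM in GB-pos 1 to 3 and 18220, 25830 and 48990 CPM in GB-neg 1 to 3. It fell by 1.22 ± 0.34, a call that ended without GB-neg 3 or GB-pos 1 (adjusted p = 0.0668 and 0.0713), and in small intestine it did not pass (-0.66 ± 0.34).

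The complex I gene mt-Nd1 had 17730, 18290 and 16240 CPM in SI-pos 1 to 3 and 30210, 51260 and 36810 CPM in SI-neg 1 to 3, a fall of 1.18 ± 0.37 that ended without SI-neg 2, SI-neg 3 or any SI-pos library (adjusted p = 0.0591 to 0.1095). It did not pass in gallbladder (-0.83 ± 0.37), where GB-neg 3 at 32430 CPM stood above GB-neg 1 and 2 at 10830 and 10290 CPM and GB-pos libraries at 10880, 9135 and 10180 CPM. The light-strand gene mt-Nd6 fell in gallbladder by 1.28 ± 0.39, a call that ended without GB-neg 3 or any GB-pos library (adjusted p = 0.0624 to 0.1477), and did not pass in small intestine (-0.30 ± 0.39). The remaining genes did not pass in either tissue: mt-Nd2 was at -1.02 ± 0.47 in gallbladder and -0.63 ± 0.46 in small intestine, mt-Nd4 at -1.22 ± 0.46 and -0.58 ± 0.45, and mt-Nd5 at -1.17 ± 0.43 and -0.26 ± 0.42. Genes of the dissociation stress list also moved with the gate: 8 of 10 were lower in IL-25+ gallbladder cells, with a sum of 2388 to 2834 CPM in GB-pos and 11370 to 22900 CPM in GB-neg libraries, and 4 of 10 in small intestine, with 596 to 1086 CPM in SI-pos and 1228 to 2110 CPM in SI-neg libraries. Their part in these differences was not tested.

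Many nuclear respiratory chain transcripts were lower in gallbladder than in small-intestine IL-25+ cells, with lower calls in every complex. Of 79 nuclear members 0 were higher and 42 lower, 53.2%, beside 10.5% and 13.1% of all genes tested. The median was -1.01 against -0.09 over all genes, and 72 of 79 members lay below 0. By complex, 12 of 37 were lower in complex I, 2 of 4 in complex II, 8 of 8 in complex III, 8 of 13 in complex IV and 12 of 17 in complex V. Of the 42 calls, 26 held in every alternative, and 38 members were lower without both GB-neg 1 and SI-neg 3. These libraries also differ in the HDM label, in enterocyte markers, 12 of 12 of which were lower in gallbladder in each gate (1021 to 1208 CPM in GB-pos and 7910 to 9744 CPM in SI-pos libraries in sum), and in dissociation stress genes, 5 of 10 of which were higher in gallbladder IL-25+ and 8 of 10 in gallbladder IL-25- cells. Their part in the member differences was not tested.

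Uqcrfs1 had 25.9, 45.3 and 57.6 CPM in GB-pos 1 to 3, against 172, 214 and 145 CPM in SI-pos 1 to 3, 2.04 ± 0.28 lower on the log2 scale (log2 fold change -2.04, adjusted p = 0.000197). Cox6b1 had 107, 84.5 and 112 CPM in GB-pos 1 to 3 and 205, 325 and 251 CPM in SI-pos 1 to 3 (-1.36 ± 0.20). Sdhb, the iron-sulfur subunit of complex II, had 46.4, 48.2 and 72.3 CPM in GB-pos 1 to 3 and 116 to 151 CPM over SI-pos 1 to 3 (-1.32 ± 0.26). In each of the 3 genes the tissues do not overlap. Cox7a1 (-2.12 ± 0.44), Atp5mpl (-1.86 ± 0.44), Ndufs4, a complex I subunit mutated in human Leigh syndrome (-1.66 ± 0.29), Atp5g3 (-1.61 ± 0.32), Cox7b (-1.60 ± 0.36), Cox6c (-1.58 ± 0.25), Ndufs1 (-1.31 ± 0.25) and Atp5b (-1.19) were lower in every alternative.

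Cox6b2 had 0 counts in each GB-pos library and 50, 51 and 153 in SI-pos 1 to 3, at least 109.6-fold lower against the floor (adjusted p = 0.00153). Cox5a (-1.95 ± 0.55) lost its call without GB-pos 2, GB-pos 3 or SI-pos 1 (adjusted p = 0.0702 to 0.0719), and Atp5a1 (-0.92 ± 0.27) without GB-pos 2, SI-pos 1 or SI-pos 2 (adjusted p = 0.0524 to 0.0780). Of the mitochondrial members 3 of 8 were lower: mt-Co1 (-2.10 ± 0.38, adjusted p = 0.00153) and mt-Cytb (-1.62 ± 0.34, adjusted p = 0.00404) in every alternative, and mt-Nd6 (-1.16 ± 0.39), which lost its call without any of 9 libraries (adjusted p up to 0.1553). These 3 calls, 37.5%, stand beside 13.1% lower among all genes tested. All 8 lay below 0, with a median of -1.16 against -0.09 over all genes, and 7 were called without GB-neg 3.

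**Figure D5:**
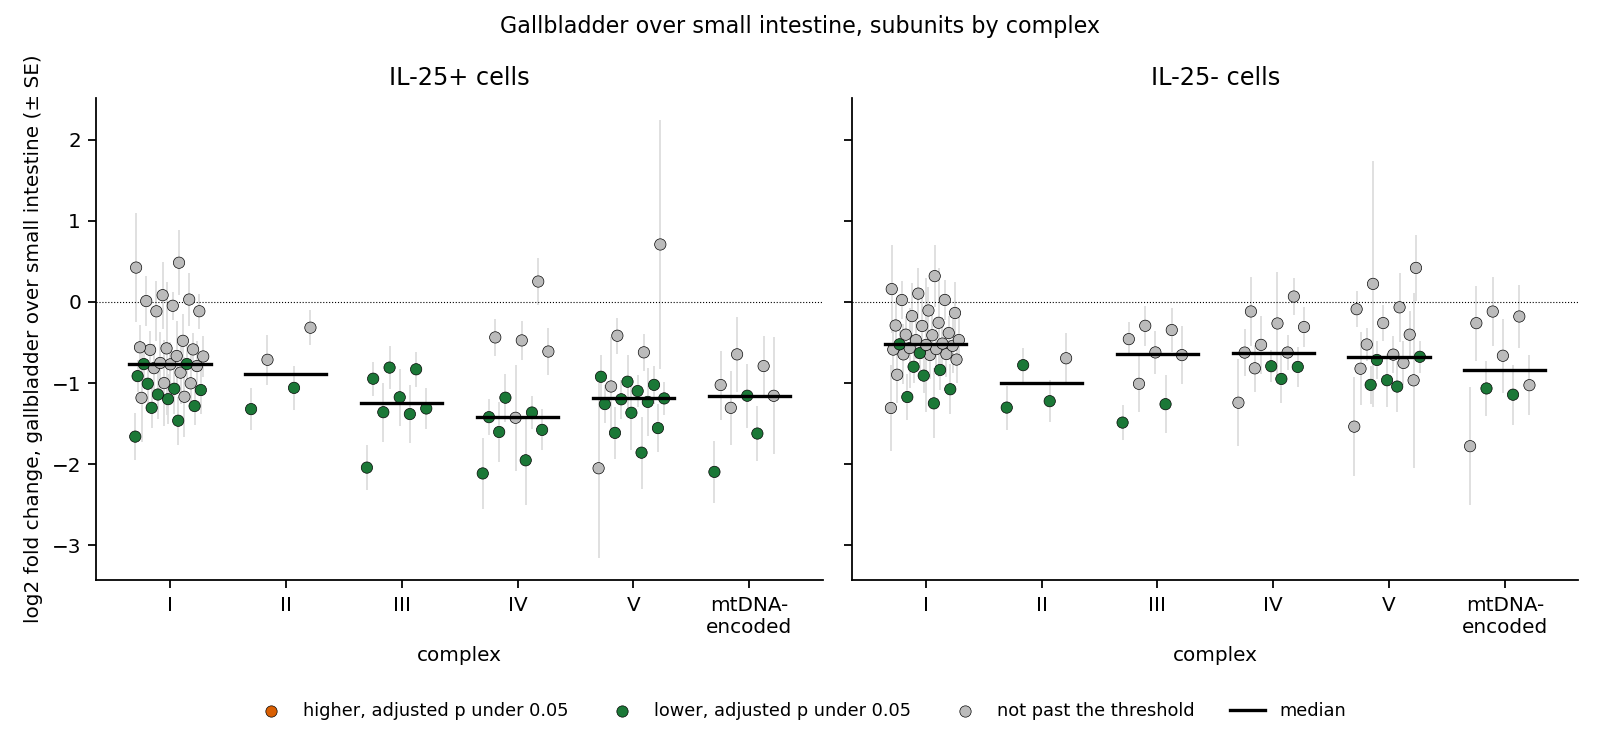
Log2 fold change of gallbladder against small intestine within each gate for each tested member, by complex, with SE bars, colored points for calls at an adjusted p of 0.05 and a line at each median. The nuclear median is -1.01 in IL-25+ and -0.62 in IL-25- cells. Cox6b2 and Ndufa4l2 are not drawn.

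In IL-25- cells, gallbladder was lower than small intestine for 21 of 79 nuclear members and higher for 0, 26.6% beside 13.0% higher and 11.7% lower among all genes. The median was -0.62 against -0.03 over all genes, with 70 of 79 below 0. The tissue comparisons of both gates share no library. By complex, 8 were lower in complex I, 3 of 4 in complex II, 2 in complex III, 3 in complex IV and 5 in complex V. The count was 9 without GB-neg 2, 13 without SI-neg 2, 6 without SI-neg 3 and 7 without both SI-neg 3 and GB-neg 1. The 5 calls that held in every alternative were Uqcrc1, Sdhd, Sdhb, Ndufs6 and Ndufa9.

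Uqcrc1 had 109.5, 106 and 68.2 CPM in GB-neg 1 to 3, against 261, 239 and 296 CPM in SI-neg 1 to 3 (-1.49 ± 0.21, adjusted p = 0.000293). Sdhd had 123, 86.4 and 48.7 CPM in GB-neg 1 to 3 and 213, 189 and 234 CPM in SI-neg 1 to 3 (-1.30 ± 0.27), and Sdhb was at -1.22 ± 0.26, so both an anchor and an electron-transfer subunit of complex II were lower. Ndufs6 was at -1.17 ± 0.28 and Ndufa9 at -0.91 ± 0.22. Ndufv1, the NADH-binding subunit (-1.25 ± 0.43), lost its call without any of 11 libraries (adjusted p up to 0.1424). Cox4i1 (-0.95 ± 0.29) lost it without GB-neg 2, GB-neg 3, SI-neg 2 or SI-neg 3 (adjusted p up to 0.122), and Atp5g3 (-1.04 ± 0.31) without GB-neg 1, GB-neg 2, SI-neg 2 or SI-neg 3 (adjusted p up to 0.127). Of the mitochondrial members, mt-Nd1 (-1.14 ± 0.37) and mt-Cytb (-1.07 ± 0.34) were lower, mt-Nd1 with a call that ended without any of 10 libraries (adjusted p up to 0.1484) and mt-Cytb without GB-neg 1, GB-neg 2, GB-pos 3, SI-neg 2 or SI-neg 3 (adjusted p up to 0.1361). These 2 calls among 8 tested mitochondrial members stand beside 11.7% lower among all genes tested. All 8 lay below 0, with a median of -0.845 against -0.03 over all genes. Without GB-neg 3, 6 mitochondrial members were called.

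Per length of merged exons, scaled to the same total in each library over nuclear genes, which member stood highest differed between groups. Cox6a1 averaged 1791 in GB-pos, 1059 in GB-neg, 1604 in SI-pos and 1292 in SI-neg libraries, whereas Atp5a1 averaged 1290 in GB-pos, 1518 in GB-neg, 1574 in SI-pos and 2484 in SI-neg libraries. Ndufa1 averaged 1391 in GB-pos and 1798 in SI-pos libraries. Over all 12 libraries Atp5a1 stood at 1716, Cox6a1 at 1436, Ndufb9 at 1132, Ndufa1 at 1117, Ndufa2 at 1111 and Atp5b at 983.5. The order also depends on the length used. With the principal transcript, Atp5a1 stood at 1578, Atp5b at 1577, Cox6a1 at 1271 and Ndufb9 at 1195. Below these came Atp5g3 at 1081, Atp5c1 at 828 and Ndufa1 at 804. The widely expressed paralogue Cox6b1 stood at 853 per merged exon length, against 4.33 for Cox6b2.

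Lists of other energy metabolism genes were counted in the same fit, beside a background of 14.5% higher and 12.8% lower in small-intestine and 12.4% higher and 14.4% lower in gallbladder IL-25+ cells among all genes tested. Of 17 genes of the citric acid cycle, which feeds NADH and succinate into the chain, 0 rose and 9 fell in small-intestine IL-25+ cells (median -0.80) and 0 rose and 10 fell in gallbladder IL-25+ cells (median -0.68). Mdh2, malate dehydrogenase, averaged 391 ± 45.0 CPM in SI-pos and 916 ± 76.6 CPM in SI-neg libraries (-1.23), and Cs, citrate synthase, 413.5 ± 63.0 CPM and 958 ± 103 CPM (-1.21; SD, n = 3 each). Of 21 glycolysis genes 13 rose and 3 fell in small intestine (median 1.06), and 5 rose and 2 fell in gallbladder (median -0.11). The glucose transporter gene Slc2a1 averaged 436 ± 32.4 CPM in GB-pos and 94.6 ± 17.4 CPM in GB-neg libraries (2.21), and 777 ± 175 CPM in SI-pos and 53.5 ± 9.52 CPM in SI-neg libraries (3.86). These calls held in every alternative.

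Of the regulators of mitochondrial biogenesis, 0 rose and 3 fell of 11 in small intestine, and 1 rose and 4 fell in gallbladder. Ppargc1a, a coactivator that induces respiratory chain genes in muscle and brown fat, averaged 1.74 ± 1.52 CPM in GB-pos and 40.2 ± 12.2 CPM in GB-neg libraries (-4.55 ± 0.52, adjusted p = 4.24e-05), and 52.0 ± 12.2 CPM in SI-pos and 229 ± 32.0 CPM in SI-neg libraries (-2.14 ± 0.46, adjusted p = 0.00426). Esrrg, a nuclear receptor that works with it, fell in gallbladder by 2.22 ± 0.40 and did not pass in small intestine (0.24 ± 0.38). Tfam, which packages and helps transcribe mitochondrial DNA, averaged 11.3 ± 2.54 CPM in GB-pos and 18.1 ± 1.96 CPM in GB-neg libraries and did not pass (-0.67 ± 0.40). It fell in small intestine (10.2 ± 3.87 CPM in SI-pos, 29.8 ± 14.2 CPM in SI-neg; -1.54 ± 0.41), a call lost in 4 of 21 alternatives. The mitochondrial RNA polymerase Polrmt passed in neither (0.23 ± 0.40 in gallbladder, -0.59 ± 0.40 in small intestine).

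Rises and falls in IL-25+ cells numbered 2 and 1 of 15 in small intestine and 1 and 2 in gallbladder for complex I assembly factors, and 6 and 2 of 32, and 3 and 2, for assembly factors of the other complexes, among them the complex III factor Uqcc3 (2.28 in gallbladder, 2.11 in small intestine, in every alternative). They numbered 1 and 5 of 22, and 1 and 1, for mitochondrial DNA expression, and 5 and 5 of 75, and 5 and 6, for mitochondrial ribosomal proteins. They numbered 3 and 4 of 14, and 1 and 7, for fatty acid oxidation, and 3 and 1 of 12, and 2 and 3, for ATP transfer and uncoupling. Electron carriers and subunits whose symbols fall outside the rule gave 2 and 3 of 17, and 1 and 5. Among these, Gpd2, which passes electrons from glycerol phosphate to ubiquinone, fell in gallbladder by 3.10 and in small intestine by 1.83 in every alternative. Cytochrome c1, Cyc1, passed in neither gate comparison (-0.65 ± 0.30 in gallbladder, -0.58 ± 0.30 in small intestine) and was lower in gallbladder than in small intestine IL-25+ cells (-1.22 ± 0.30). Cycs, cytochrome c, stood at 0.853 to 3.49 CPM per group. Windows shared with other transcripts were counted for members alone, so their part in the Cycs level was not tested. Ndufab1 was lower in gallbladder IL-25+ cells than in intestinal ones (-1.47 ± 0.38), a call lost in 2 of 21 alternatives.

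Between tissues, beside 10.5% higher and 13.1% lower among all genes in IL-25+ cells and 13.0% and 11.7% in IL-25- cells, 16 of 21 glycolysis genes and 10 of 17 citric acid cycle genes were lower in gallbladder among IL-25+ cells, with 1 higher in each, and 9 and 7 were lower among IL-25- cells, with 6 and 0 higher. Of 75 mitochondrial ribosomal protein genes 1 was higher and 7 lower in IL-25+ cells, and 2 and 4 in IL-25- cells. Of 12 genes of ATP transfer 1 was higher and 9 lower in IL-25+ cells, and 1 and 6 in IL-25- cells. Ppargc1a was lower in gallbladder in both gates (-4.93 ± 0.53 in IL-25+ cells, -2.51 ± 0.47 in IL-25- cells).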

How the data were processed

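Bulk mRNA of sorted epithelium was sequenced in 12 libraries. The authors deposited unnormalized counts by Ensembl gene, from reads aligned with STAR 2.7.2b to GRCm38 per the submitters' processing notes, which also list DESeq2. The counter, strand setting and annotation are not given in the sources used here, and the library kit does not mark strand. The table's other 11 sample columns fit no label and were left out. Symbols came from GENCODE M21 (42548 genes matched). Counts were fitted with edgeR 4.0.16 in R 4.3.3: filterByExpr with a minimum count of 10, TMM scaling, 1 quasi-likelihood model over all 12 libraries with group as the only factor, two-sided F tests, Benjamini-Hochberg adjustment over all genes per comparison and a threshold of 0.05. CPM are TMM-scaled. The procedure was tested on simulated data. Floors use 3 counts over a group, which cover counting error only.

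The text names all mitochondrial members, the largest called change per complex and direction above 10 CPM, members called against their complex, paralogue pairs, core subunits and leading list genes; Ndufa13, Ndufb3, Ndufa3, Ndufv3, Cox6c, Cox8a, Ndufs6, Ndufa9 and other members given for holding in every alternative were chosen after their values were seen. Members and lists were chosen with earlier results of these data known. Alternatives were RLE scaling, DESeq2 1.42.0, limma-voom (limma 3.58.1), no filter or a stricter one, replicate blocks, a fit of the compared groups alone, removal of mitochondrial genes, and leaving out 1 library or SI-neg 3 with GB-neg 1. The principal-transcript length was added after seeing the data. No replicate libraries agreed within sampling noise (lowest chi-square 49.2 per degree of freedom). Tables used pandas 2.3.3 and figures matplotlib 3.10.9, in Python 3.11.15 with scipy 1.17.1 and numpy 2.4.6. The values of 1 member are not reported here.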

Additional observations from a re-analysis of the deposited data

Results flagged for a closer look

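The gate difference in gallbladder minus that in small intestine passed edgeR's quasi-likelihood test of the difference itself for the genes given here, and each value is a log2 difference of effects. Among respiratory chain members these were Uqcrfs1 (-1.42, adjusted p = 0.0329), which fell in gallbladder IL-25+ cells and did not pass in small intestine, and Cox6b2 (-7.88, adjusted p = 0.0222), whose fitted value depends on the prior count because it had 0 counts in the GB-pos libraries.

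Among the genes that feed or regulate the chain, the effect was lower in gallbladder for Gpd2 (-1.27, adjusted p = 0.0212, lost in 4 of 21 alternatives), Hif1a (-1.63), Esrrg (-2.47), Ppargc1a (-2.41, adjusted p = 0.0344, lost in 12) and Pcx (-3.44, lost in 9). It was higher for Mdh2 (1.12), which fell in small intestine IL-25+ cells and was at -0.11 in gallbladder. Over all genes tested the effect was lower for 5.60% and higher for 3.63%, which is 932 and 604 genes, against 743 and 779 under RLE. It was lower for 9 of 21 glycolysis genes, among them Aldoa (-1.98), Pfkl (-3.42), Eno1 (-1.82) and the glucose transporter gene Slc2a1 (-1.65), and higher for 0. Of 14 fatty acid oxidation genes it was lower for 4, Cpt1a (-2.09), Decr1 (-1.38), Slc25a20 (-1.17, lost in 10) and Hadha (-0.82, lost in 15), and higher for 1, Hadh (1.08, lost in 14). It was also lower for the mitochondrial creatine kinase Ckmt1 (-1.14, lost in 4). Tissue and the HDM label cannot be told apart in any of these.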

How the results depend on the processing

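No called member changed sign under any alternative, but the gallbladder split of 9 rises and 12 falls became 13 and 11 in DESeq2, and Atp5g2, not called there (0.48), was at -2.87 without GB-pos 2. Counts of nuclear members moved most. In small intestine, 19 rises became 10 (RLE) or 31 (limma-voom) and 5 falls became 9 (DESeq2), 11 (limma-voom) or 2 (without SI-neg 3 and GB-neg 1); in gallbladder, 9 rises became 5 without that pair and 12 falls became 7 with the compared groups alone. The 21 members lower in IL-25- gallbladder became 13 with those groups alone, 41 with limma-voom and 7 without the pair. For the difference of gate effects, 0 higher became 1 in DESeq2, and 2 lower became 4 (DESeq2, limma-voom), 1 (RLE, replicate block nested in tissue) or 0 (without the pair). Of mitochondrial members, 2 falls in small intestine became 1 (limma-voom, replicate block, stricter filter) or 0 (no filter), and 3 in gallbladder became 5 (DESeq2), 1 (compared groups alone, limma-voom, no filter) or 6 (without the pair). The 3 lower in IL-25+ gallbladder became 7 with those groups alone, and the 2 in IL-25- gallbladder became 4 (DESeq2, limma-voom) or 0 (compared groups alone, no filter, without the pair). Over all genes, the 2405 rises in small intestine became 2119 (RLE) or 3288 (limma-voom), and the 2124 falls became 3128 (DESeq2) or 3544 (limma-voom). The cause was not tested. Leaving mitochondrial counts out of the total moved the nuclear share to 0.775% in GB-neg, 1.08% in SI-pos and 1.35% in SI-neg, against 0.643, 0.907 and 0.958%, and principal-transcript length put the Cox7a1 share of GB-neg at 72.7%.

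Leaving out 1 library gave 8 to 23 rises and 1 to 7 falls in small intestine, 3 to 12 and 7 to 12 in gallbladder, 28 to 49 lower in IL-25+ and 6 to 21 in IL-25- gallbladder, and 0 to 3 with a lower gate effect in gallbladder. For mitochondrial members it gave 0 to 4, 1 to 7, 2 to 7 and 0 to 6 lower in those comparisons, in that order, and 0 to 1 with a higher gate effect. Mean nuclear shares were 0.627 to 0.731% in GB-pos, 0.612 to 0.663% in GB-neg, 0.872 to 0.946% in SI-pos and 0.826 to 1.07% in SI-neg, and mitochondrial shares 5.77 to 6.36%, 10.2 to 15.3%, 11.3 to 13.5% and 21.3 to 24.4%. Same-numbered libraries deviated together with correlations of -0.052 to 0.162. Between the gallbladder gates they gave 0.094, 0.019 and 0.162, and differently numbered ones -0.179 to 0.096. The labels do not say whether a number marks a shared mouse or day, and correlations over 3 libraries per group cannot decide it. The replicate block is given only here. With 3 libraries per group, changes smaller than the spread between them were not detectable.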
